A study of Caenorhabditis elegans with 13 samples.

Results

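The step from adult day 4 to adult day 6 was described in small RNA libraries of whole Caenorhabditis elegans, as 3 libraries of day 6 against 3 libraries of day 4. These are 6 of the 13 libraries in the series, chosen by the day in their labels. The animals of all 6 libraries were of strain N2, the laboratory wild type, and no mutant or transgene is named. On each of the days 4 and 6 there was 1 library labelled AL (fed ad libitum), 1 labelled CR and 1 labelled IF. The feeding schemes behind CR and IF are not described in the labels, nor is the handling of progeny, and nothing says whether the libraries came from separate cultures. With 1 library per diet and day, the only replication of the step is across the diets, and the spread between libraries may be partly technical. The standard errors (SE) of levels rest on a spread shared by miRNAs of like level, not on how far the step of the single miRNA varied between diets. Of 434 mature miRNAs listed, 201 had at least 10 reads in at least 3 of the 6 libraries, and these are the miRNAs described. A library held 2639586 to 5143918 miRNA reads, and 168 to 218 miRNAs had at least 10 reads in it.

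MiRNAs are short RNAs cut from hairpin precursors. One arm of a hairpin, called 5p or 3p by the end it comes from, is usually loaded into an Argonaute protein and lowers the output of mRNAs that pair with its 5′ seed, while the other arm is usually degraded. Members of a family share a seed. Early adult hermaphrodites of C. elegans make oocytes and carry embryos in the uterus, so whole-worm RNA can hold miRNAs of the body and of the germline and embryos. No count of the embryos carried on day 4 or day 6 was used here. In such libraries, fewer cells of a type and less of an RNA per cell cannot be told apart.

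Between day 4 and day 6 the reads spread out over more miRNAs in all 3 diets, as the most abundant miRNA lost much of its share. MiR-58a-3p, a relative of the fly bantam miRNA, held 66.5% of the AL reads on day 4 and 31.4% on day 6. In CR its share was 47.5% on day 4 and 20.7% on day 6, and in IF 36.0% and 13.8%. MiR-36-3p, an embryonic miRNA of the mir-35 family, held 6.68% on day 4 and 1.71% on day 6 in AL, 9.43% and 1.38% in CR, and 22.7% and 1.22% in IF. All 3 day 6 shares of both miRNAs lay below all 3 day 4 shares. MiR-80-3p, in the same seed family as miR-58a-3p, held 1.63%, 3.13% and 1.37% of the reads on day 4 in AL, CR and IF, and 12.4%, 9.72% and 9.66% on day 6. The share of miR-35-3p was 2.02%, 4.99% and 5.75% on day 4 and 5.93%, 11.4% and 15.8% on day 6, and in IF it was then the most abundant miRNA. The shares of neither overlapped between the days, but for miR-35-3p the CR and IF libraries of day 4 came close to the AL library of day 6.

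**Figure D1:**
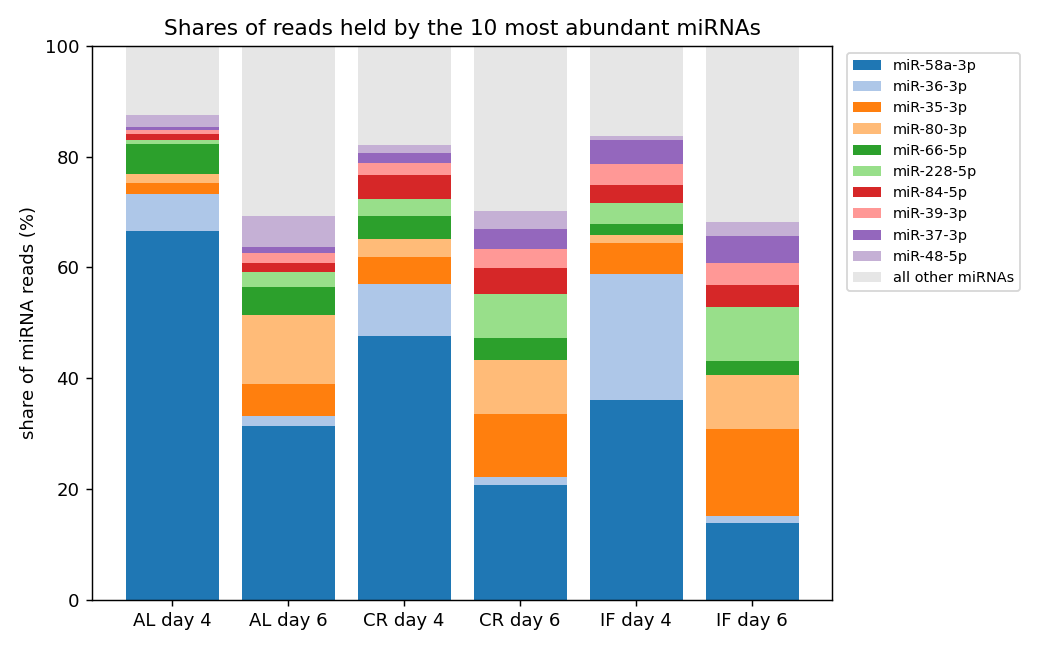
Share of all miRNA reads (%) held by each of the 10 miRNAs of highest mean level, stacked for each of the 6 libraries, with all other miRNAs in grey. The block of miR-58a-3p shrinks from 66.5% to 31.4% in AL, from 47.5% to 20.7% in CR and from 36.0% to 13.8% in IF, and the blocks of miR-80-3p and miR-35-3p widen.

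The 10 most abundant miRNAs of each library together held 89.8%, 82.4% and 86.6% of the reads on day 4 in AL, CR and IF, and 74.1%, 72.8% and 69.9% on day 6. The effective number of miRNAs, the exponential of the Shannon entropy of the shares, was 5.27, 10.9 and 10.8 on day 4 and 17.5, 21.7 and 23.3 on day 6. The day 6 values lay above every other library of the series, whose days 2, 8 and 10 ranged from 7.04 in AL on day 2 to 16.7 in IF on day 8. An exact paired permutation test of 3 pairs cannot go below p = 0.25, so these values are given with no test. The widest 95% Wilson interval of a share was 0.116 percentage points, which covers counting error only.

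Of the 201 miRNAs tested, 45 (22.4%) passed an adjusted p of 0.05 in edgeR's quasi-likelihood test with diet as a block. Of these, 23 rose (11.4%) and 22 fell (10.9%). An unadjusted p under 0.05 was reached by 78. Levels are library-size normalised read counts (CPM) after scaling by the trimmed mean of M values (TMM), a factor that aligns the bulk of the miRNAs between libraries, and fold changes are of these levels. The 3 steps had the same direction in 41 of the 45 and in 120 of all 201 (59.7%). The 3 day 6 values did not overlap the 3 day 4 values in 36 of the 45 and in 64 of all 201 (31.8%). A mean level under 10 CPM was found in 7 of the 45: miR-1823-3p, miR-4936, miR-4923a, miR-251 and miR-2217a-3p, higher on day 6, and miR-255-3p and miR-8202-5p, lower.

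**Figure D2:**
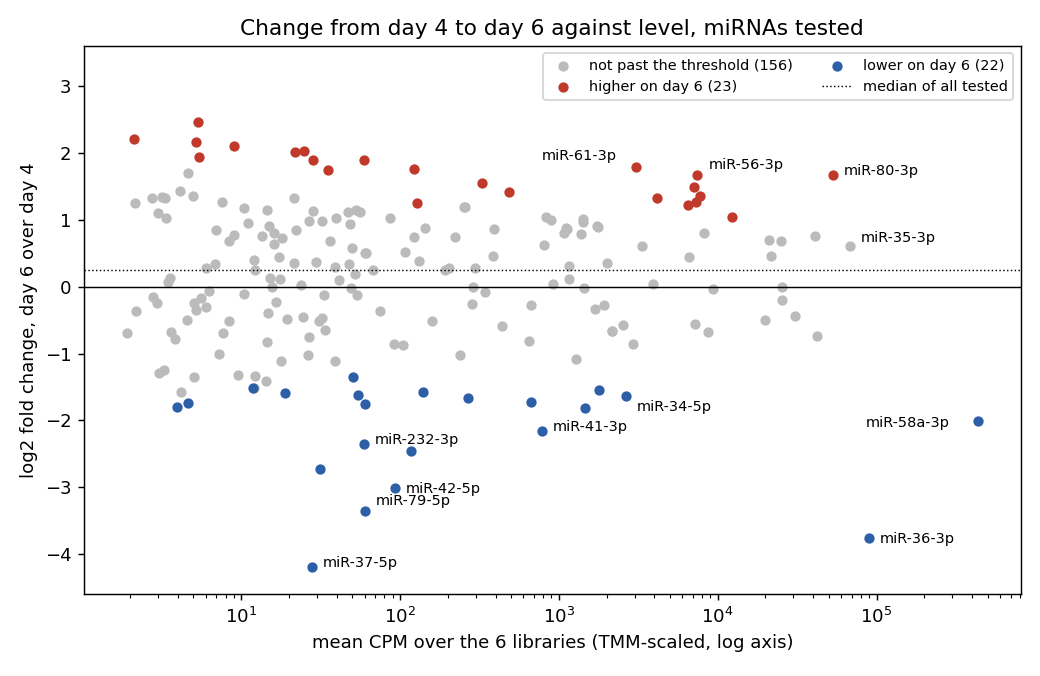
Log2 fold change from day 4 to day 6 (vertical axis) against the mean level over the 6 libraries (CPM, log axis) for the 201 miRNAs tested. The 23 that rose are red and the 22 that fell are blue, and the dotted line marks the median of all tested, 0.25. MiR-36-3p and miR-58a-3p stand far to the right among those that fell.

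The count of calls depended on the scaling and on the diets. With DESeq2's size factors 11 rose and 18 fell, with total counts 83 rose and 9 fell, and with totals that leave out the 3 most abundant miRNAs 7 rose and 19 fell, while the median log2 fold change of all tested miRNAs was 0.25 with TMM, 0.14, 1.04 and 0.02 in that order. All 45 kept their direction under these 4 scalings, and 16 passed under all of them: 9 that fell (miR-36-3p, miR-37-5p, miR-58a-3p, miR-79-5p, miR-42-5p, miR-1829c-5p, miR-51-3p, miR-232-3p and miR-41-3p) and 7 that rose (miR-80-3p, miR-61-3p, miR-56-3p, miR-787-3p, miR-83-5p, miR-56-5p and miR-35-5p). Without the 2 AL libraries 19 passed, without those of CR 16, and without those of IF only miR-36-3p did. Without the diet block 5 passed, all lower on day 6. The prior degrees of freedom were estimated as infinite, so each miRNA was tested against the trend shared by all of them and not against its own spread. Single miRNAs still differed in how far their steps lay apart between diets. The highest and lowest log2 steps were 0.11 apart for miR-50-5p and 5.66 apart for miR-71-5p, while their SE were 0.44 and 0.50.

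The mir-35 family consists of 8 miRNAs that are supplied in oocytes and early embryos of C. elegans and are needed for embryos to survive. Its members are mir-35 to mir-41, in 1 cluster on chromosome II (WBcel235 II:11537608-11538404, plus strand, in an intron of Y62F5A.9 that is on the other strand), and mir-42, at II:11889811-11889905 on the plus strand, which lies between protein-coding genes. Of the 8 guide (3p) arms, all tested, 1 rose, 2 fell and 5 did not pass, beside 22.4% called among all miRNAs tested, and the median log2 fold change was 0.22 beside 0.25. The family as a whole held 11.8%, 20.2% and 39.7% of the reads on day 4 in AL, CR and IF, and 15.4%, 26.2% and 31.4% on day 6, values that overlap.

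MiR-36-3p was at 115173, 96956 and 292474 CPM on day 4 in AL, CR and IF, and at 13596, 10813 and 8555 CPM on day 6. Every day 6 library was far below every day 4 library, and the IF library went from the highest of the 6 to the lowest. The level fell by 3.76 on the log2 scale (SE 0.38, adjusted p = 9.95e-19), which is 13.5-fold, the smallest adjusted p of all 201. MiR-41-3p, from the last hairpin of the cluster, was at 1490, 1848 and 578 CPM on day 4 and 288, 308 and 202 CPM on day 6. All 3 diets were lower on day 6, and the log2 fold change was -2.16 (SE 0.47, adjusted p = 0.000141). MiR-42-3p moved the other way, from 3158, 2044 and 6877 CPM to 7560, 11102 and 11953 CPM. Its day 6 values were above all day 4 values, with a log2 fold change of 1.49 (SE 0.42, adjusted p = 0.00388), and it passed under 3 of the 4 scalings.

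The other 5 family members did not pass. MiR-35-3p was at 34825, 51300 and 73986 CPM on day 4 and 47148, 89892 and 111216 CPM on day 6, higher on day 6 within each diet but overlapping between days (log2 fold change 0.61, SE 0.34, adjusted p = 0.159). For miR-37-3p the log2 fold change was 0.00 (SE 0.36), with IF lower on day 6 and AL and CR higher. MiR-38-3p, miR-39-3p and miR-40-3p had log2 fold changes of 0.46, -0.19 and 0.44, with adjusted p from 0.348 to 0.707. The hairpins on either side of mir-36 are those of mir-35 and mir-37, whose guide arms are among these 5.

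Shares within the cluster do not depend on how libraries are scaled. MiR-36-3p made up 57.7%, 47.3% and 58.01% of the 3p reads of the 7 clustered hairpins on day 4 in AL, CR and IF, and 11.9%, 5.55% and 4.10% on day 6. On day 2, sampled in AL only, its share was 61.3%, and in the 6 libraries of days 8 and 10 it was at most 4.18%. MiR-35-3p was at 17.4%, 25.0% and 14.7% on day 4 and 41.1%, 46.2% and 53.3% on day 6, and became the most abundant member in each diet. The change of leading member took place between day 4 and day 6 in all 3 diets.

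**Figure D3:**
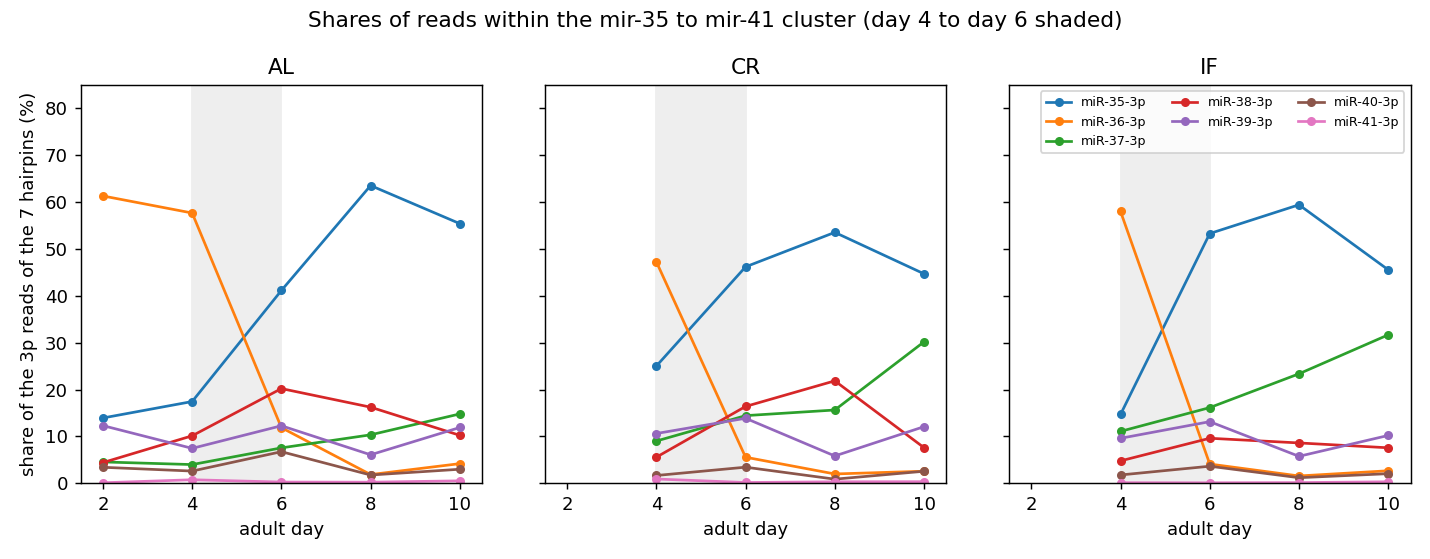
Share (%) of the 3p reads of the 7 hairpins of the mir-35 to mir-41 cluster held by each member, by adult day, 1 panel per diet and 1 library per point, with the step from day 4 to day 6 shaded. MiR-36-3p (orange) goes from 57.7%, 47.3% and 58.01% to 11.9%, 5.55% and 4.10%, and stays at or under 4.18% on days 8 and 10, while miR-35-3p (blue) becomes the leading member.

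The mir-58 family shares its seed with the fly miRNA bantam, and is known in C. elegans for effects on body size, dauer formation and TGF-beta signalling. Of its 5 members 4 were tested: 1 rose, 1 fell and 2 did not pass, beside 22.4% called among all tested. MiR-58b-3p had at most 2 reads in a library. The 4 had a median log2 fold change of -0.62 beside 0.25 for all tested, or 0.18 beside 1.04 with total counts. MiR-58a-3p (hairpin at IV:3233254-3233350, plus strand, in an intron of Y67D8A.2 on the same strand) fell by 2.01 on the log2 scale (SE 0.30, adjusted p = 5.95e-09). MiR-80-3p (III:8865270-8865367, minus strand, between protein-coding genes) was at 28032, 32213 and 17566 CPM on day 4 in AL, CR and IF and at 98664, 76337 and 67824 CPM on day 6. It rose in all 3 diets with no overlap between days, and its log2 fold change was 1.67 (SE 0.35, adjusted p = 8.55e-05). MiR-81-3p and miR-82-3p had log2 fold changes of -0.67 (SE 0.40) and -0.56 (SE 0.40) and did not pass. As a share of the reads of the family, miR-80-3p went from 2.33% to 27.0% in AL, from 5.99% to 30.4% in CR and from 3.55% to 39.2% in IF. On day 8 that share was 19.5%, 18.1% and 16.0%, and on day 10 it was 5.76%, 5.39% and 5.94%.

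The mir-51 family is broadly expressed, is related to the deeply conserved miR-99/100 miRNAs and is needed for C. elegans embryos to complete development. Of its 6 members, all tested, 2 rose and none fell at this threshold, beside 11.4% higher and 10.9% lower among all tested. The median log2 fold change was 0.96, beside 0.25 for all tested. The 2 that rose, miR-55-3p and miR-56-3p, lie in 1 cluster with mir-54 on the minus strand of chromosome X (X:13144691-13145094), in an intron of F09A5.3 that is on the other strand. MiR-56-3p was at 3026, 2117 and 6296 CPM on day 4 and at 9388, 9852 and 14133 CPM on day 6. Its log2 fold change was 1.67 (SE 0.41, adjusted p = 0.000986), with all day 6 values above all day 4 values. MiR-55-3p was at 9900, 5082 and 10029 CPM on day 4 and 18174, 14516 and 16565 CPM on day 6, also without overlap, with a log2 fold change of 1.04 (SE 0.39, adjusted p = 0.04). MiR-54-3p was higher in each diet with a log2 fold change of 1.04 (SE 0.46) but did not pass (adjusted p = 0.0827). The other 3 hairpins are on chromosome IV, where mir-51 and mir-53 form a cluster on the minus strand and mir-52 lies apart on the plus strand. MiR-51-5p had a log2 fold change of 0.87, miR-52-5p of -0.50 and miR-53-5p of -0.28, and none of them passed.

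The mir-64 family is encoded by 1 cluster (mir-229, mir-64, mir-65 and mir-66) in an intron of gcn-1 on chromosome III. One of its 4 members rose, 1 fell and 2 did not pass, beside 22.4% called among all tested. Their median log2 fold change was -0.31, beside 0.25 for all tested, or 0.48 beside 1.04 with total counts. MiR-229-5p was at 1124, 1008 and 913 CPM on day 4 and 309, 429 and 214 CPM on day 6, with day 6 lower throughout. It fell by 1.73 on the log2 scale (SE 0.47, adjusted p = 0.00298). MiR-64-5p was at 1109, 994 and 7326 CPM on day 4 and 3239, 6728 and 5644 CPM on day 6. The days overlap, with IF the highest of the 6 on day 4. It passed with a log2 fold change of 1.33 (SE 0.46, adjusted p = 0.0219), although in IF its level was lower on day 6. MiR-66-5p, the most abundant of the 4, had a log2 fold change of -0.73 (SE 0.35, adjusted p = 0.109), which is 0.06 with total counts.

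Among 10 miRNAs listed for a link to the lifespan of C. elegans, 3 rose (miR-80-3p, miR-238-3p and miR-71-5p), 2 fell (miR-239b-5p and miR-34-5p) and 5 did not pass. This stands beside 22.4% called among all 201 tested (11.4% higher, 10.9% lower). Their median log2 fold change was 0.78, beside 0.25 for all tested, and the list was not tested as a group. MiR-34-5p belongs to the conserved miR-34 family, which acts in DNA damage and stress responses. It was at 3068, 5053 and 3961 CPM on day 4 and 1458, 1215 and 1143 CPM on day 6. All diets were lower on day 6 without overlap, and the level fell by 1.64 on the log2 scale (SE 0.44, adjusted p = 0.00265). MiR-239b-5p, from a gene beside mir-239a in a pair whose deletion has been found to lengthen life, was at 3192, 1297 and 2423 CPM on day 4 and 835, 566 and 483 CPM on day 6. It too was lower in each diet with no overlap (log2 fold change -1.82, SE 0.46, adjusted p = 0.00125). Both passed under 3 of the 4 scalings.

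MiR-239a-5p, from the neighbouring hairpin, did not pass (log2 fold change 0.70, SE 0.39, adjusted p = 0.155), at 37225, 15248 and 4464 CPM on day 4 and 31879, 20801 and 16980 CPM on day 6. MiR-238-3p, whose loss shortens life, was at 4238, 2294 and 7254 CPM on day 4 and 12676, 9457 and 8055 CPM on day 6. It rose without overlap (log2 fold change 1.27, SE 0.42, adjusted p = 0.0163), by little in IF, and passed under 2 of the 4 scalings. MiR-71-5p, which promotes long life and stress resistance, was at 6748, 12463 and 320 CPM on day 4 and 14714, 5445 and 7063 CPM on day 6. The days overlap, AL and IF were higher on day 6 and CR lower, and the step was the widest apart between diets of all miRNAs of at least 100 CPM. It passed (log2 fold change 1.36, SE 0.50, adjusted p = 0.0355), but without the IF libraries its log2 fold change was -0.03. The minor arm miR-71-3p rose without overlap, with steps of 2.29, 2.25 and 0.59 in AL, CR and IF. Its log2 fold change was 1.74 (SE 0.52, adjusted p = 0.00737), and it passed under 2 of the 4 scalings. MiR-246-3p (0.80), miR-228-5p (0.76), miR-83-3p (0.85) and lin-4-5p (0.28) did not pass. The listed 3p arm of mir-83 is its minor arm here. The 5p arm, miR-83-5p, was at 16.8, 6.93 and 7.31 CPM on day 4 and 38.8, 40.4 and 39.1 CPM on day 6. It rose without overlap (log2 fold change 2.03, SE 0.54, adjusted p = 0.00236).

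The let-7 family times the larval-to-adult switch in the skin and stays expressed in adults. None of its 4 members passed, beside 22.4% of all tested, with log2 fold changes of -0.57 for let-7-5p, 0.68 for miR-48-5p, -0.44 for miR-84-5p and 0.04 for miR-241-5p. Their median was -0.20, beside 0.25 for all tested, or 0.60 beside 1.04 with total counts. MiR-793 is a divergent relative of let-7, and was the only one of 4 such relatives to pass. It was at 151, 197 and 283 CPM on day 4 and 83.4, 72.0 and 52.9 CPM on day 6, lower in each diet without overlap (log2 fold change -1.57, SE 0.49, adjusted p = 0.0105). Neither lin-4-5p, the first miRNA found and a larval timer, nor its relative miR-237-5p passed.

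Several miRNAs outside these families moved the same way in each diet. MiR-61-3p, known for its part in vulval cell fate through the Notch receptor LIN-12, was at 998, 1898 and 1232 CPM on day 4 and 3393, 4596 and 6156 CPM on day 6. It rose without overlap, with a log2 fold change of 1.79 (SE 0.44, adjusted p = 0.000978). Its hairpin (V:11770060-11770156, minus strand) lies next to mir-250, whose 3p arm did not pass (log2 fold change 0.61, SE 0.42). In the seed family of miR-61-3p, the miR-44-3p and miR-45-3p counts were equal in 5 of 6 libraries and within 1 read in the other, so they count as 1 value, and it did not pass (log2 fold change -0.67, SE 0.43). The median of the 3 tested entries of that family counts this pair as separate entries. It is therefore the value of the pair and not of the family, -0.67, or 0.13 with total counts. For all tested miRNAs the median was 0.25, or 1.04 with total counts.

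MiR-787-3p was at 29.2, 18.2 and 29.2 CPM on day 4 and 75.9, 100.3 and 107 CPM on day 6 (log2 fold change 1.90, SE 0.50, adjusted p = 0.00236), and did not overlap. MiR-46-3p rose from 239, 129 and 87.2 CPM to 980, 284 and 243 CPM (log2 fold change 1.55, SE 0.48, adjusted p = 0.00935), most of all in AL, while miR-47-3p of the same family did not pass (0.51, SE 0.48). MiR-233-3p and miR-70-3p passed with log2 fold changes of 1.41 (SE 0.48) and 1.22 (SE 0.42), higher on day 6 in each diet, though the days overlap. Both start from levels that differed several-fold between diets on day 4, miR-70-3p from 11057 CPM in AL to 838 CPM in IF.

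MiR-231-3p was at 2334, 3193 and 2503 CPM on day 4 and 821, 1123 and 806 CPM on day 6, with steps of -1.51, -1.51 and -1.63 in AL, CR and IF. These are nearly equal steps, and it fell by 1.55 on the log2 scale (SE 0.44, adjusted p = 0.00465). MiR-232-3p was at 119, 69.6 and 101 CPM on day 4 and 42.3, 12.95 and 10.98 CPM on day 6 (log2 fold change -2.36, SE 0.51, adjusted p = 0.00013). MiR-1829c-5p was at 30.8, 93.6 and 41.4 CPM on day 4 and 5.26, 8.44 and 9.44 CPM on day 6, and its hairpin is in an intron of piki-1 on the same strand (log2 fold change -2.72, SE 0.54, adjusted p = 2.25e-05). The 5p arm of mir-1829a, in an intron of gas-1, rose instead, with a log2 fold change of 1.90 (SE 0.54, adjusted p = 0.00422), and passed under 2 of the 4 scalings. MiR-75-3p and miR-244-5p passed with log2 fold changes of -1.35 (SE 0.50) and -1.66 (SE 0.52), but overlapped between days and passed under TMM only. MiR-75-3p was lower on day 6 in each diet, while the steps of miR-244-5p were -1.66, -3.30 and 0.05 in AL, CR and IF.

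**Figure D4:**
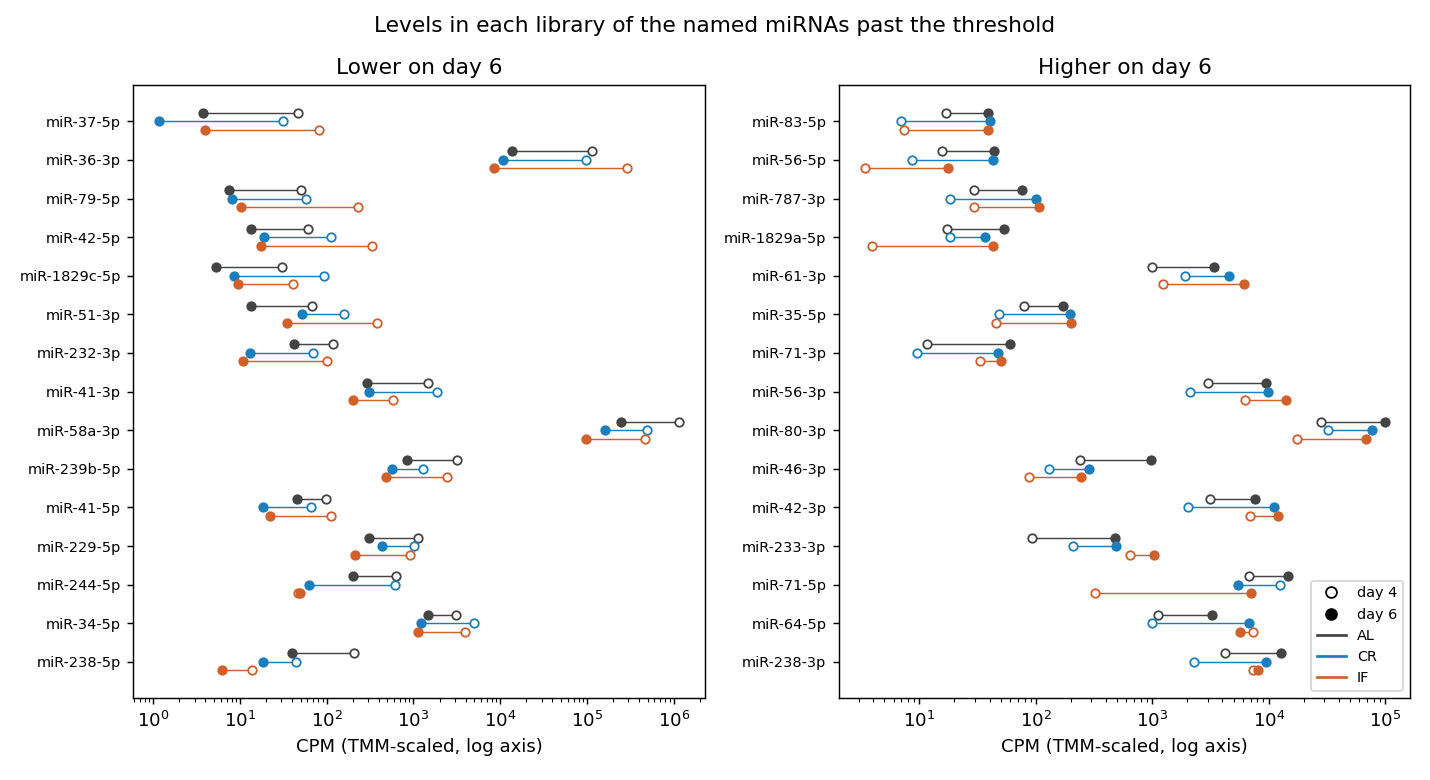
Levels (CPM, log axis) in each library of the 15 miRNAs with the largest fall (left) and the 15 with the largest rise (right) among those past the threshold with a mean of at least 10 CPM; open points are day 4, filled points day 6, and each line joins the 2 libraries of 1 diet. MiR-36-3p goes from 96956 to 292474 CPM down to 8555 to 13596 CPM, and the lines of miR-71-5p and miR-64-5p point in different directions in different diets.

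Of the members of these families and lists that were not named above, most did not pass, beside 22.4% called among all 201 tested. None of the listed arms passed in the mir-50 family (miR-50-5p, miR-62 and miR-90-3p), the mir-2 family (4 members) or the mir-72 family (3 members). Nor did miR-49-3p, miR-83-3p or miR-63-3p, while miR-83-5p rose. Outside the lists, the minor arm miR-2-5p fell in each diet without overlap (log2 fold change -1.59, SE 0.54, adjusted p = 0.0196). Of 4 miRNAs listed for roles in nutrition and stress, miR-70-3p rose and miR-235-3p, miR-236-3p and miR-77-3p did not pass. The minor arm miR-77-5p, not on that list, passed with a log2 fold change of 1.25 (SE 0.48, adjusted p = 0.0473). Its level was higher on day 6 in each diet, though the days overlap. In the cluster of mir-4807 and its neighbours on chromosome X, 6 of 11 members were tested and 1, miR-4923a, passed with 0 to 22 reads on day 4 and 7 to 119 on day 6; its AL level was not higher on day 6, at 1.75 against 2.01 CPM.

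MiRNAs known as markers of single tissues were read in the whole-worm libraries. The muscle miRNA miR-1-3p was at 14128, 9928 and 5242 CPM on day 4 and 9691, 8293 and 8599 CPM on day 6, overlapping, with a log2 fold change of -0.03 (SE 0.40). Of the 3 intestinal miRNAs, miR-60-3p (-1.02), miR-240-3p (-0.64) and miR-786-3p (1.11), none passed. The listed 3p arm of mir-240 is its minor arm here, with 68 to 180 reads in a library. Its 5p arm had 663 to 9164 reads and a log2 fold change of 0.80, and did not pass either. The neuronal miRNAs tested, miR-124-3p (-1.57, adjusted p = 0.0732), miR-791-3p (0.77) and miR-234-3p (0.34), did not pass, and lsy-6-3p had 5 to 14 reads in a library and was not tested. MiR-124-3p, also a minor arm here, had 7 to 25 reads in a library, and miR-124-5p had a log2 fold change of 0.68. MiR-228-5p, made in glia among other cells, was at 12280, 30808 and 48956 CPM on day 4 and 20998, 62506 and 69081 CPM on day 6, higher within each diet but overlapping (log2 fold change 0.76, SE 0.35, adjusted p = 0.0975). None of these 8 tested markers passed, beside 22.4% called among all miRNAs tested, and a list this short says little on tissue make-up. The oocyte and embryo markers are the 8 guide arms of the mir-35 family. How far the make-up of the worms by tissue moved with the other results was not tested.

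The minor arm of a hairpin, the one with fewer reads, passed the test at about the same rate as the major arm. Among 58 minor arms 4 rose and 9 fell (22.4% called, median log2 fold change -0.24), and among 127 major arms 16 rose and 12 fell (22% called, median 0.45). Those that fell include miR-37-5p, at 46.6, 31.2 and 80.9 CPM on day 4 and 3.76, 1.18 and 3.95 CPM on day 6. Its log2 fold change was -4.19 (SE 0.59, adjusted p = 4.8e-10), the largest of all tested, and it rests on 6 to 18 reads in the day 6 libraries and 108 to 166 reads in those of day 4. MiR-79-5p was at 50.3, 57.5 and 229 CPM on day 4 and 7.52, 8.05 and 10.3 CPM on day 6 (log2 fold change -3.35, SE 0.54, adjusted p = 7.29e-08). The fall was seen in each diet without overlap and was deepest in IF. Minor arms that rose include miR-35-5p, from 78.8, 48.0 and 45.8 CPM to 171, 195 and 200.4 CPM (log2 fold change 1.76, SE 0.49, adjusted p = 0.00388).

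The ratio of the 3p to the 5p reads of a hairpin is free of library scaling, and was tested with limma on 58 of 190 hairpins with 2 named arms. Of these, 5 (8.62%) changed at an adjusted p of 0.05, and 12 had an unadjusted p under 0.05. The log2 ratio of mir-42 was 5.68, 4.18 and 4.35 on day 4 in AL, CR and IF and 9.13, 9.17 and 9.41 on day 6. It moved towards the 3p arm by 4.50 (SE 0.66, adjusted p = 0.00615), with miR-42-5p lower and miR-42-3p higher on day 6. That of mir-37 was 7.41, 9.20 and 9.42 on day 4 and 11.1, 14.3 and 12.98 on day 6, a shift of 4.12 (SE 0.66, adjusted p = 0.00615). Here the 5p arm fell while the 3p arm had a log2 fold change of 0.00.

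The remaining 3 changed hairpins were mir-51, mir-61 and mir-238. The log2 ratio of mir-51 went from -2.56, -1.82 and -2.09 to -6.08, -4.72 and -5.64, towards its 5p arm (difference -3.33, SE 0.61, adjusted p = 0.0113), with miR-51-3p lower on day 6. For mir-61 it went from 5.37, 5.94 and 8.72 to 9.56, 9.35 and 10.4 (3.08, SE 0.71, adjusted p = 0.0333), and the 5p arm had 5 to 106 reads in a library. For mir-238 it went from 4.36, 5.69 and 9.00 to 8.29, 9.00 and 10.3 (2.85, SE 0.72, adjusted p = 0.0469), and the days overlap at the IF library of day 4. None of the 5 passed without the AL libraries or without the CR libraries, and all 5 passed without those of IF, when 7 hairpins did.

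**Figure D5:**
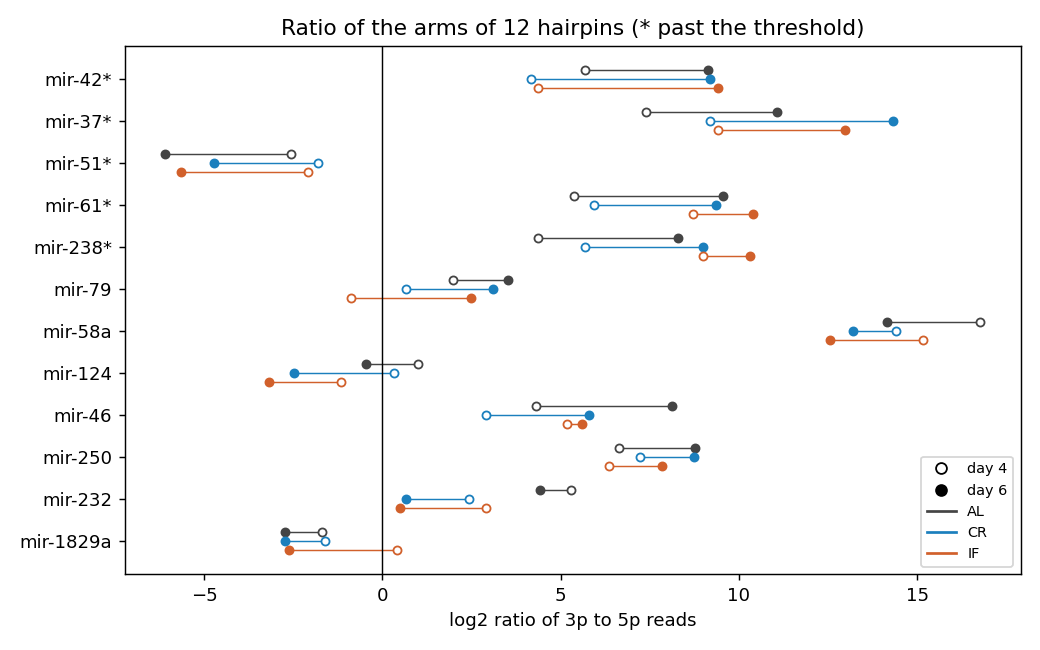
Log2 ratio of 3p to 5p reads in each library for the 12 hairpins with the smallest p; open points are day 4, filled points day 6, lines join the libraries of 1 diet, and an asterisk marks the 5 past the threshold. The ratio of mir-42 moves from 4.18 to 5.68 up to 9.13 to 9.41, and that of mir-51 moves the other way.

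Steps of the 3 diets were compared as a description, since 1 library per diet and day allows no test of a difference between them. Across the 201 miRNAs, the AL and CR steps had a Pearson r of 0.716 (Spearman rho 0.684), AL and IF 0.529 (0.475) and CR and IF 0.504 (0.475). The steps had the same sign in 79.1%, 70.1% and 70.1% of miRNAs in that order. The points of each pair share the depth, composition and scaling of the same 4 libraries, and miRNAs are not independent replicates. The steps were spread more widely in IF, with an SD of 1.56 on the log2 scale, than in CR (1.33) and AL (1.15). The IF library of day 4 had the fewest reads, 2639586, and how far low counts widened the IF steps was not tested. The AL and IF Pearson r was 0.416 with a prior count of 0.5 and 0.600 with one of 10. With total counts the steps had the same sign in 80.1% (AL and CR), 82.1% (AL and IF) and 75.1% (CR and IF).

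The later steps of adult life were put beside this one in a single model. In a fit of the 12 libraries of days 4 to 10, which share 1 estimate of the spread, with 10 reads asked for in 3 of the 12, 43 of 221 miRNAs (19.5%) passed for day 6 over day 4. For day 8 over day 6 it was 107 (48.4%) and for day 10 over day 8 it was 106 (48.0%), with a median absolute distance of the log2 fold changes from their own median of 0.77, 1.44 and 1.27 in order of time. The steps share libraries, so these counts are given side by side and were not tested against each other.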

How the data were processed

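Small RNA was sequenced from whole worms of 13 libraries, 1 per diet and day; 6 enter the main comparison. Per the labels' protocols, RNA of 18 to 30 nt was cut from a 6% polyacrylamide gel and libraries were made with version 1.5 of Illumina's small RNA kit; the labels name no molecular identifiers, so intervals cover counting error only. Per the file headers, each deposited value is a read count, not normalized, for 1 mature miRNA from 1 precursor. Which aligner, counter, miRNA database and genome build made the counts is not given in the sources used here. Entries of 1 mature name were collapsed to the highest count, at a cost of no more than 0.219% of any library's reads. The number in the library names stands for the day.

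Counts were tested with edgeR 4.0.16 (R 4.3.3) in a model of day and diet, with TMM scaling, a filter of 10 reads in 3 libraries and Benjamini-Hochberg adjustment over all 201 miRNAs, two-sided. The TMM factors differed by day without overlap: 0.580, 0.973 and 0.777 on day 4 in AL, CR and IF, and 1.26, 1.27 and 1.42 on day 6. The common dispersion was 0.144, and the prior degrees of freedom were infinite. Diet pairs the libraries: the deviations from the day means of the 2 libraries of a diet correlated at 0.679 (AL), 0.285 (CR) and 0.381 (IF). Arm ratios, log2 of (3p count + 1) over (5p count + 1), were tested with limma 3.58.1 where both arms had 10 reads in 3 libraries. Steps per diet are differences of log2 CPM with a prior count of 2. DESeq2 1.42.0, limma-voom, other scalings and filters and leaving out the libraries of a diet were alternatives. The tests were tried on simulated data first. Tables were made with scipy 1.17.1, numpy 2.4.6 and pandas 2.3.3 in Python 3.11.15, and plots with matplotlib 3.10.9.

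Of 250 hairpins, 245 had a gene of the same name in Ensembl release 115 (WBcel235), and 5, including let-7, had none. Hairpins at most 10000 bp apart on 1 strand form a cluster; between protein-coding genes means that no protein-coding gene contains the hairpin. The miRNAs named are the 15 with the largest change in each direction with a mean of at least 10 CPM, the members of the lists, the 10 most abundant, the 5 of at least 100 CPM whose step differed most between diets, the leading arm ratios and miRNAs clustered with these. The comparison, its members and the lists were chosen with earlier results of these data known, and the arms standing for mir-54, mir-55, mir-56 and mir-62 and the bounds of the chromosome X list were set after the files were read.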

Additional observations from a re-analysis of the deposited data

Results flagged for a closer look

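The step from day 4 to day 6 had opposite signs in the libraries of different diets for 5 miRNAs with a mean of at least 100 CPM, those whose steps lay furthest apart. With 1 library per diet and day the difference between the diets was not tested. For miR-71-5p the log2 step was 4.46 in IF and -1.19 in CR, a difference of 5.66; the IF library of day 4, at 320 CPM (656 reads), is the lowest of the 6. For miR-244-5p the step was 0.05 in IF and -3.30 in CR, a difference of 3.35. For miR-243-3p it was 2.46 in IF and -0.80 in AL, a difference of 3.25, and the IF library of day 4 was again the lowest, at 70.7 CPM. For miR-64-5p it was 2.76 in CR and -0.38 in IF, a difference of 3.13. For miR-241-5p, of the let-7 family, it was 1.61 in AL and -1.47 in CR, a difference of 3.08.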

How the results depend on the processing

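The 45 miRNAs that passed became 35 with DESeq2, 43 with limma-voom, 43 with no low-count filter, 37 with 100 reads in 3 libraries, 42 with counts summed over precursors, 41 in the fit of 12 libraries over the same 201 miRNAs and 65 at an adjusted p of 0.10. They became 29 with DESeq2's size factors, 92 with total counts and 26 with totals without the 3 most abundant miRNAs. The paired analysis was the main one; with no replicate block (no diet term) 5 miRNAs and 2 arm ratios passed. Leaving out the 2 libraries of a diet left 1 to 19 miRNAs and 0 to 7 arm ratios. The 5 arm ratios became 3 with a pseudocount of 0.5, 8 with one of 5 and 5 with 100 reads per arm.

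Some log2 fold changes changed sign, and apart from miR-71-5p all of them belong to miRNAs that had not passed. With total counts miR-66-5p was at 0.056, miR-84-5p at 0.36 and miR-39-3p at 0.60. MiR-37-3p was at -0.14 with DESeq2, -0.021 with limma-voom, -0.11 with DESeq2's size factors, -0.23 with totals without the 3 most abundant, -0.22 without the block and -0.0035 with 12 libraries. MiR-241-5p was at -0.086, -0.054, -0.17, -0.20 and -0.14 with the same alternatives, limma-voom left aside. The causes were not tested. Leaving out the libraries of 1 diet moved miR-71-5p between -0.035 and 2.63, miR-39-3p between -0.61 and 0.12, miR-37-3p between -0.47 and 0.36, miR-243-3p between -0.45 and 1.18 and miR-241-5p between -0.73 and 0.65. Of 360 values for 36 miRNAs past the threshold, 204 stayed past it, 155 kept their direction but not the threshold, and 1, miR-71-5p without IF, reversed. The seed-group test was not run, as no mature sequences were used here. Depth limits miRNAs under 10 CPM, which rest on few reads.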
